A study of Homo sapiens with 12 samples.

Results

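The simple epithelial keratins KRT7, KRT8, KRT18 and KRT19 were followed in 3 head and neck cancer cell lines, each measured as an invasion subline and as its parent. They were found as all probe sets whose only symbol in the platform annotation was one of these 4 genes. This gave 5 probe sets, 2 for KRT7 and 1 for each of KRT8, KRT18 and KRT19, among 22283 probe sets and 11963 named genes. The 12 arrays, 2 per group, were the Detroit invasion subline and Detroit parent, the Fadu invasion subline and Fadu parent, and the OECM1 invasion subline and OECM1 parent. No genetic change or drug is given for any group, and a subline was made by collecting the cells that had passed through Matrigel, a basement membrane extract. Fadu is a line of a squamous carcinoma of the hypopharynx and OECM1 of the oral cavity, while the labels name no further identity for the Detroit line. Whether a subline is a clone or a pool, and how often it was selected, the labels do not say. Nor do they say whether the arrays of a group came from separate cultures, so p-values measure the spread between arrays that may be technical repeats.

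Keratins are intermediate filament proteins that assemble as pairs of a type I and a type II chain. KRT8, a type II chain, pairs with KRT18, a type I chain, in simple epithelia such as those of gut, liver and glands. KRT7, type II, and KRT19, type I, are added in ducts and glands. Stratified squamous epithelium, the source of most head and neck carcinomas, is built mainly on KRT5 and KRT14 in its basal layer, and carcinomas of this kind often carry simple keratins as well. In GRCh38.p14 the type II genes KRT7 (chr12:52233243-52255853) and KRT8 (chr12:52897191-52949860) lie in one keratin cluster with KRT18 (chr12:52948855-52952906), the type I gene that stands apart from the type I cluster. KRT19 (chr17:41523617-41528308) lies in the type I cluster. The annotated spans of KRT8 and KRT18 overlap by 1006 bases, and 641 kb separate the end of KRT7 from the start of KRT8. These are whole gene spans, exons and introns together.

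Of the 4 genes, KRT8 had a start window in the RefSeq promoter table used here, and it is printed because KRT8 and KRT18 are neighbours whose values moved together between arrays. After group means were removed their r was 0.851, and that of KRT18 with KRT19, on chromosome 17, was 0.937. Each of these r rests on 6 differences, 1 between the duplicates of each group. A link between the window and these values was not tested. The window is chr12:52926420-52926719 in GRCh38.p14, minus strand, with 250 bases before and 50 bases after the start used in that table. The capitals mark its 1 match to the reverse complement of the ETS motif CCGGAAGT, whose first base lies at position -59 from that start.
KRT8: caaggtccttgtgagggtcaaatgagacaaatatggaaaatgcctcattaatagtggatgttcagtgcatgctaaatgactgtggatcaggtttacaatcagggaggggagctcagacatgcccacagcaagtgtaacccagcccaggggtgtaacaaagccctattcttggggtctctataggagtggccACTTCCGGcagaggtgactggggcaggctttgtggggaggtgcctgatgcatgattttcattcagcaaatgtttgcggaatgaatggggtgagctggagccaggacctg
Matches were counted on both strands. The motif CCGGAAGT, whose letters were chosen after the window had been read, occurred in 4.14% of 35116 windows of this length. The AP-1 motif TGANTCA, the GC box GGGCGG, the motif CCAAT and the TATA motif TATAAA had 0 matches in these letters, against 7.71%, 45%, 34.6% and 11.5% of all windows. The annotated span of KRT8 reaches 23.4 kb upstream of this start, and 4 RefSeq transcripts are listed, so other starts exist and the window is a description of 1 of them.

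Values are log2 expression after RMA, which corrects background, gives every array the same distribution and condenses the probes of a set into 1 value, and a difference of 1 is a doubling. All 12 arrays had medians between 4.92 and 5.06. The 6 markers of squamous carcinoma lines that could be named on the array averaged 8.57 and 9.07 on the arrays of the Detroit-labelled subline and 6.98 and 7.04 on those of the Detroit parent. In the subline 2 of the 6, KRT14 and DSG3, were called higher, against 3.02% of all probe sets called in either direction. The 6 markers averaged 8.13 and 8.26 in the Fadu subline and 8.46 and 8.51 in its parent, and 6.99 and 7.25 in the OECM1 subline and 7.43 and 7.74 in its parent, with 0 called. In the Fadu and OECM1 comparisons SFN, an epithelial 14-3-3 protein, stood at -0.40 and -0.33. Between parents, 1 of the 6 was called lower in Detroit than in Fadu, against 2.29% of all called in either direction. Another count of 1 was lower in Detroit than in OECM1, against 497 of 15124 in either direction. In OECM1 1 was called lower than in Fadu, against 1.11% of all called lower. The fibroblast markers, 10 on the array, averaged 4.05 to 4.73, the 7 endothelial markers 4.55 to 4.90 and the 8 leukocyte markers 4.15 to 4.68, near the limit of 4.52 below which a probe set is called dim here, and 0 of their tested members were called in any comparison. Of these, the members of smallest p in the Detroit-labelled pair were COL1A2, a fibrillar collagen chain, with 4.67 and 4.73 in the subline against 8.50 and 5.35 in the Detroit parent, and COL1A1 at -0.43. The next were EGFL7 at 1.04 and TEK at -0.26 of the endothelial list, and CD14 at 0.40 and CD3E at -0.24 of the leukocyte list. In Fadu they were DCN at -0.16, COL1A1 at 0.14, ENG at 0.32, TEK at -0.15, CD14 at -0.31 and TYROBP at 0.37. In OECM1 they were PDGFRA at -0.16, THY1 at -0.13, ENG at -1.30, EGFL7 at -0.18, CD3D at 0.16 and CD79A at 0.12. The averages hide brighter members, since 3 of the 7 endothelial markers had a mean above the limit in each group. So did 4 or 5 of the 10 fibroblast and 3 or 5 of the 8 leukocyte markers. EGFL7 averaged 7.1 in the Detroit-labelled subline and ENG 7.0 in the Fadu subline. The part of all these markers in the keratin values was not tested. The Detroit invasion subline correlated more closely with the Fadu parent (r = 0.965 over 15124 probe sets) than with the Detroit parent (r = 0.893), whereas the Fadu and OECM1 sublines correlated with their own parents at 0.980 and 0.973. These 2 arrays are therefore called the Detroit-labelled subline, and its comparison is given with that reservation. In bulk samples, fewer cells that carry a keratin and less of its RNA per cell cannot be told apart.

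KRT18 was the steadiest of the 4 keratins, with every group mean between 11.26 and 12.07. The 2 arrays read 12.57 and 11.57 in the Detroit-labelled subline and 11.43 and 12.04 in its parent. They read 11.21 and 11.98 in the Fadu subline against 11.83 and 11.56 in the Fadu parent, and 11.11 and 11.42 in the OECM1 subline against 11.22 and 11.55 in the OECM1 parent. In the order of group means, which ran from the Detroit-labelled subline through the Detroit parent, Fadu parent, Fadu subline and OECM1 parent to the OECM1 subline, all 5 neighbouring pairs overlapped. The range of the 6 group means was 0.81, and 50.1% of tested probe sets had a larger one.

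KRT8, the partner of KRT18, was lowest in both OECM1 groups. It read 11.48 and 8.79 in the Detroit-labelled subline and 9.21 and 9.76 in its parent, and the first of these arrays was the highest of all 12. The Fadu subline read 9.41 and 10.01 against 9.67 and 9.59 in the Fadu parent. The OECM1 subline read 8.70 and 8.69 against 8.31 and 8.62 in the OECM1 parent, so all 4 OECM1 arrays lay below the other 8. Neighbours in the order Detroit-labelled subline, Fadu subline, Fadu parent and Detroit parent overlapped, whereas the step of 0.79 from the Detroit parent down to the OECM1 subline and the step of 0.23 to the OECM1 parent were without overlap. The group means spanned 1.67, and 14% of tested probe sets spanned more.

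KRT7, the ductal type II chain, was bright enough to test in 1 of its 2 probe sets. That probe set, 209016_s_at, read 6.87 and 6.66 in the Detroit-labelled subline and 7.67 and 7.83 in its parent. It read 7.32 and 8.10 in the Fadu subline against 7.31 and 6.97 in the Fadu parent. It read 5.32 and 4.69 in the OECM1 subline against 4.88 and 5.76 in the OECM1 parent, again with all 4 OECM1 arrays below the other 8. The order ran from the Detroit parent through the Fadu subline, Fadu parent and Detroit-labelled subline to the OECM1 parent and OECM1 subline. The steps from the Fadu subline to the Fadu parent (0.57), on to the Detroit-labelled subline (0.37) and on to the OECM1 parent (1.44) were free of overlap. The first and last neighbours overlapped. The other probe set, 214031_s_at, stayed between 3.69 and 4.57 on all arrays, had 1 array above the dim limit and was not tested.

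KRT19, the type I chain of ducts and glands, varied most among the 4, with group means that spanned 4.16, and 0.655% of tested probe sets spanned more. It read 9.83 and 8.62 in the Detroit-labelled subline and 10.12 and 10.91 in its parent. It read 8.37 and 9.73 in the Fadu subline against 10.01 and 9.40 in the Fadu parent. The OECM1 subline read 7.71 and 8.59 against 5.77 and 6.94 in the OECM1 parent, and both OECM1 parent arrays were the lowest of the 12. The Detroit parent stood above the Fadu parent by 0.81, and the OECM1 parent stood 1.80 below the OECM1 subline, both without overlap. The neighbours in between, from the Fadu parent through the Detroit-labelled and Fadu sublines to the OECM1 subline, overlapped.

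**Figure D1:**
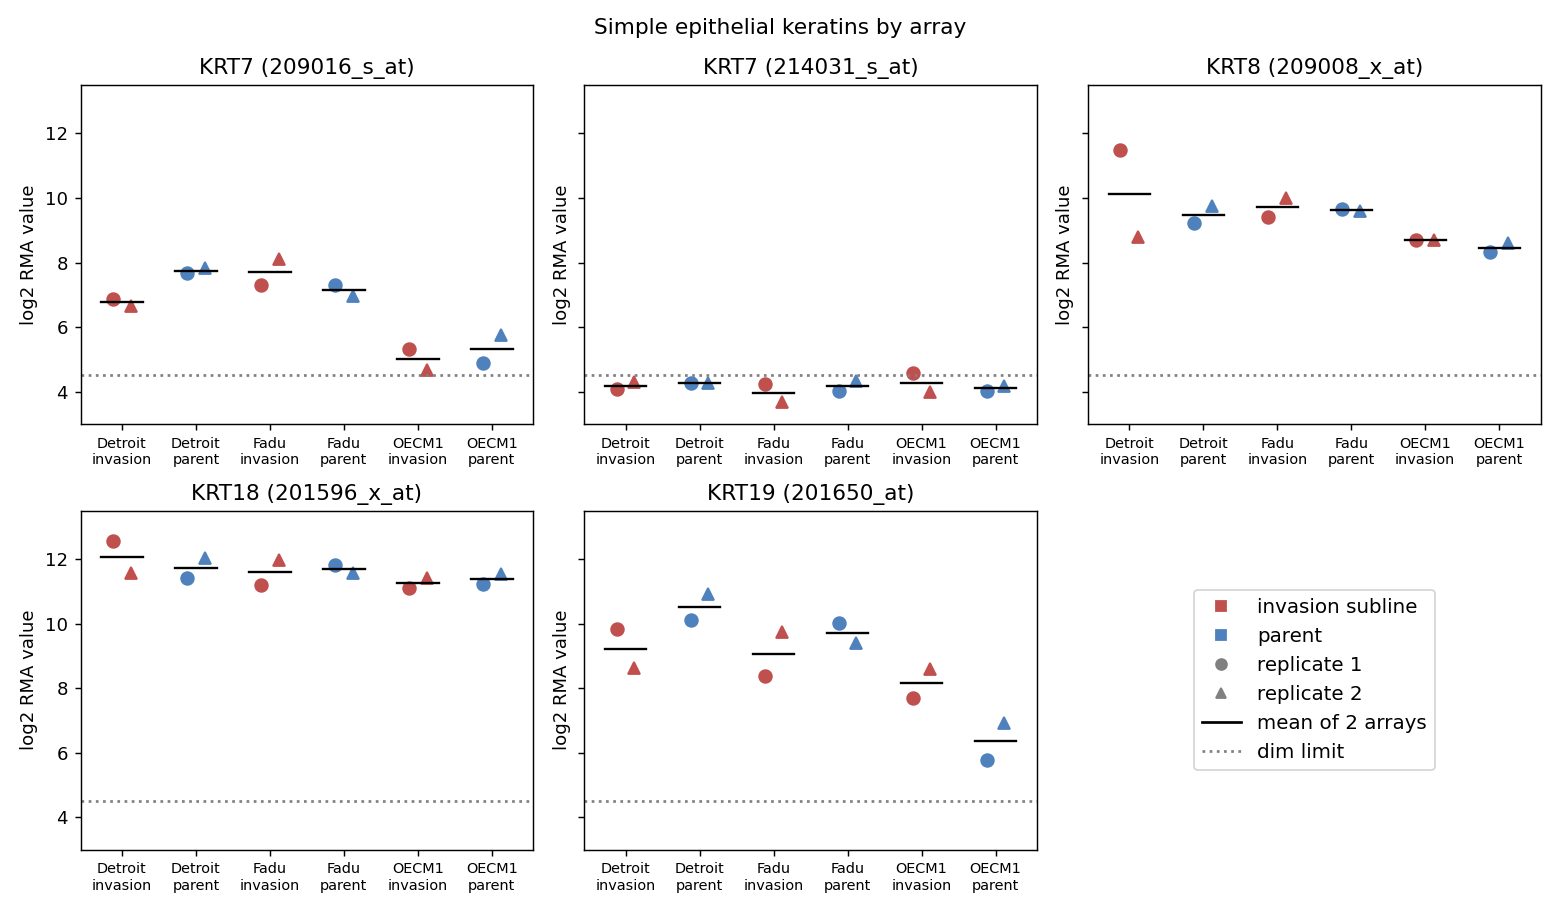
Log2 RMA values of the 5 keratin probe sets (vertical axes) on each of the 12 arrays, with subline and parent side by side for the Detroit, Fadu and OECM1 lines; circles are replicate 1, triangles replicate 2, black bars the mean of 2 arrays and the dotted line the dim limit of 4.52. The KRT19 panel shows both OECM1 parent arrays, at 5.77 and 6.94, below all others, and the KRT18 panel shows all arrays between 11.11 and 12.57.

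The first question was whether cells selected for invasion carried more or less of each keratin than their parents. No keratin passed the test in any of the 3 lines. In OECM1, KRT19 averaged 8.15 ± 0.62 in the subline and 6.35 ± 0.82 in the parent (SD, n = 2 each). The log2 difference was 1.80 with an SE of 0.61 and a 95% interval of 0.45 to 3.14, 3.47-fold, and 1.24% of tested probe sets had a smaller p in this line (limma, adjusted p = 1). KRT8 was also higher in both OECM1 subline arrays, by 0.23 (interval -1.23 to 1.69). KRT7 and KRT18 overlapped in OECM1, with differences of -0.32 and -0.12. Thus 0 of 4 members were called in OECM1, against 0.00661% of all probe sets, and 2 of 4 were higher without overlap, against 12.7% of all. By limma, 1 of 15124 probe sets passed there and 498 had an unadjusted p under 0.05.

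In Fadu, KRT7 averaged 7.71 ± 0.56 in the subline and 7.14 ± 0.24 in the parent (SD, n = 2 each), and both subline arrays lay above both parent arrays by a narrow margin. The difference was 0.57 (interval -0.30 to 1.44, limma, adjusted p = 1). KRT8, KRT18 and KRT19 overlapped, with differences of 0.08, -0.10 and -0.66, and the interval for KRT19 ran from -2.01 to 0.69. Thus 0 of 4 members were called in Fadu, against 0.0198% of all probe sets, and 1 was higher without overlap, against 15.5%. In all, 3 probe sets passed in Fadu and 265 had an unadjusted p under 0.05.

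In the Detroit-labelled pair, KRT7 averaged 6.77 ± 0.15 in the subline and 7.75 ± 0.11 in the parent, and KRT19 averaged 9.22 ± 0.86 in the subline and 10.51 ± 0.56 in the parent (SD, n = 2 each). Both were lower in each subline array than in each parent array. The differences were -0.98 for KRT7 (interval -1.85 to -0.11, limma, adjusted p = 0.246) and -1.29 for KRT19 (interval -2.64 to 0.05, limma, adjusted p = 0.346). KRT8 and KRT18 overlapped, with differences of 0.65 (interval -0.81 to 2.10) and 0.34 (interval -0.48 to 1.15). Here 0 of 4 were called, against 3.02% of all probe sets, and 2 were lower without overlap, against 18.8%. The KRT8 value rested on 1 array: the difference was 1.99 (adjusted p = 0.0266) without replicate 2 of the subline and -0.70 (adjusted p = 0.334) without replicate 1. Set against the Fadu parent, to which this subline was closer over all probe sets, it differed by -0.37 for KRT7, 0.50 for KRT8, 0.38 for KRT18 and -0.49 for KRT19. Its distance to the Fadu parent was smaller than to the Detroit parent for KRT7, KRT8 and KRT19 and not for KRT18. For KRT8 these distances were 0.505 and 0.646, while the duplicates of the subline were 2.69 apart. For KRT7 both arrays of the subline lay below both Fadu parent arrays. In the comparison with the Fadu parent 0 of all probe sets were called, which is 0%, and 558 had an unadjusted p under 0.05.

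The effects were then compared between lines. An F test of the 3 subline effects called 0 of 4 keratins, against 0.602% of all probe sets. Its unadjusted p was 0.0106 for KRT19 and 0.0521 for KRT7, with adjusted p of 0.337 and 0.617, and the adjusted p was 1 for KRT8 and KRT18. The KRT19 effect in OECM1 exceeded that in Fadu by 2.46 (SE 0.86, interval 0.55 to 4.36), with an adjusted p of 1 by limma and 0 of all probe sets called. The average over the 3 line pairs was -0.24 for KRT7, 0.32 for KRT8, 0.04 for KRT18 and -0.05 for KRT19, with adjusted p of 0.892, 0.849, 0.962 and 0.988. In that average 0 of all probe sets were called, which is 0%, and 645 had an unadjusted p under 0.05.

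Between parents, KRT7 and KRT19 were low in OECM1, while no difference in KRT8 or KRT18 passed. KRT19 averaged 10.51 ± 0.56 in the Detroit parent and 6.35 ± 0.82 in the OECM1 parent, a difference of 4.16 (SE 0.61, interval 2.81 to 5.51, limma, adjusted p = 0.00443), or 17.9-fold. KRT7 averaged 7.75 ± 0.11 in the Detroit parent and 5.32 ± 0.62 in the OECM1 parent, a difference of 2.42 (SE 0.39, interval 1.56 to 3.29, limma, adjusted p = 0.00729), or 5.37-fold. KRT8 differed by 1.02 (interval -0.44 to 2.48) and KRT18 by 0.35 (interval -0.46 to 1.17). So 2 of 4 members were called higher in the Detroit parent, against 1.43% of all probe sets, and 3 of 4 were higher without overlap, against 21.3%. The call for KRT19 ended without replicate 1 of the OECM1 parent (adjusted p = 0.051), and that for KRT7 without the same array (0.0632) or replicate 2 of the Detroit parent (0.0537).

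In the OECM1 parent against the Fadu parent, all 4 keratins were lower in both OECM1 arrays, as were 20.5% of all probe sets, and 2 of 4 were called lower, against 1.11%. KRT19 averaged 6.35 ± 0.82 in the OECM1 parent and 9.71 ± 0.43 in the Fadu parent, a difference of -3.35 (SE 0.61, interval -4.70 to -2.01, limma, adjusted p = 0.016), or 10.2-fold lower. KRT7 averaged 5.32 ± 0.62 in the OECM1 parent and 7.14 ± 0.24 in the Fadu parent, a difference of -1.82 (SE 0.39, interval -2.68 to -0.95, limma, adjusted p = 0.0391), or 3.52-fold lower. KRT8 differed by -1.16 (interval -2.62 to 0.29) and KRT18 by -0.31 (interval -1.13 to 0.50). Leaving out 1 array ended both calls in 3 cases: replicate 1 of the Fadu parent (adjusted p = 0.277 for KRT7 and 0.17 for KRT19), replicate 2 of the Fadu parent (0.123 and 0.0563) and replicate 1 of the OECM1 parent (0.182 and 0.116). KRT7 also missed the threshold without any single array of the Detroit parent or the OECM1 subline, with adjusted p between 0.0506 and 0.0557. The Detroit parent exceeded the Fadu parent by 0.61 in KRT7 and 0.81 in KRT19 without overlap, and differed by -0.14 in KRT8 and 0.04 in KRT18. There 0 of 4 were called, against 2.29%, and 2 were higher without overlap, against 26.2%. These comparisons share parent arrays with each other and with the subline comparisons. Without the Detroit-labelled subline arrays the count of called keratins was again 2 in each of the comparisons with the OECM1 parent.

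The sublines were set against each other after these values had been seen. KRT7 was lower in the OECM1 subline than in the Fadu subline (difference -2.71, SE 0.39, limma, adjusted p = 0.00389), and KRT19 differed by -0.90 (interval -2.24 to 0.45, adjusted p = 0.475) with overlap. In this contrast 2.76% of all probe sets were called lower. The Detroit-labelled subline exceeded the OECM1 subline by 1.76 in KRT7 (adjusted p = 0.0284), where 1.53% of probe sets were called higher, and by 1.07 in KRT19 (interval -0.28 to 2.42, adjusted p = 0.393). The low KRT7 of OECM1 thus passed the test in sublines as in parents, and the low KRT19 passed in parents and not in sublines. Whether the KRT19 difference between OECM1 and Fadu itself differed between sublines and parents is the same contrast as the difference of 2.46 given above, whose adjusted p was 1. The matching contrast for the Detroit-labelled subline and OECM1 was not tested on its own.

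**Figure D2:**
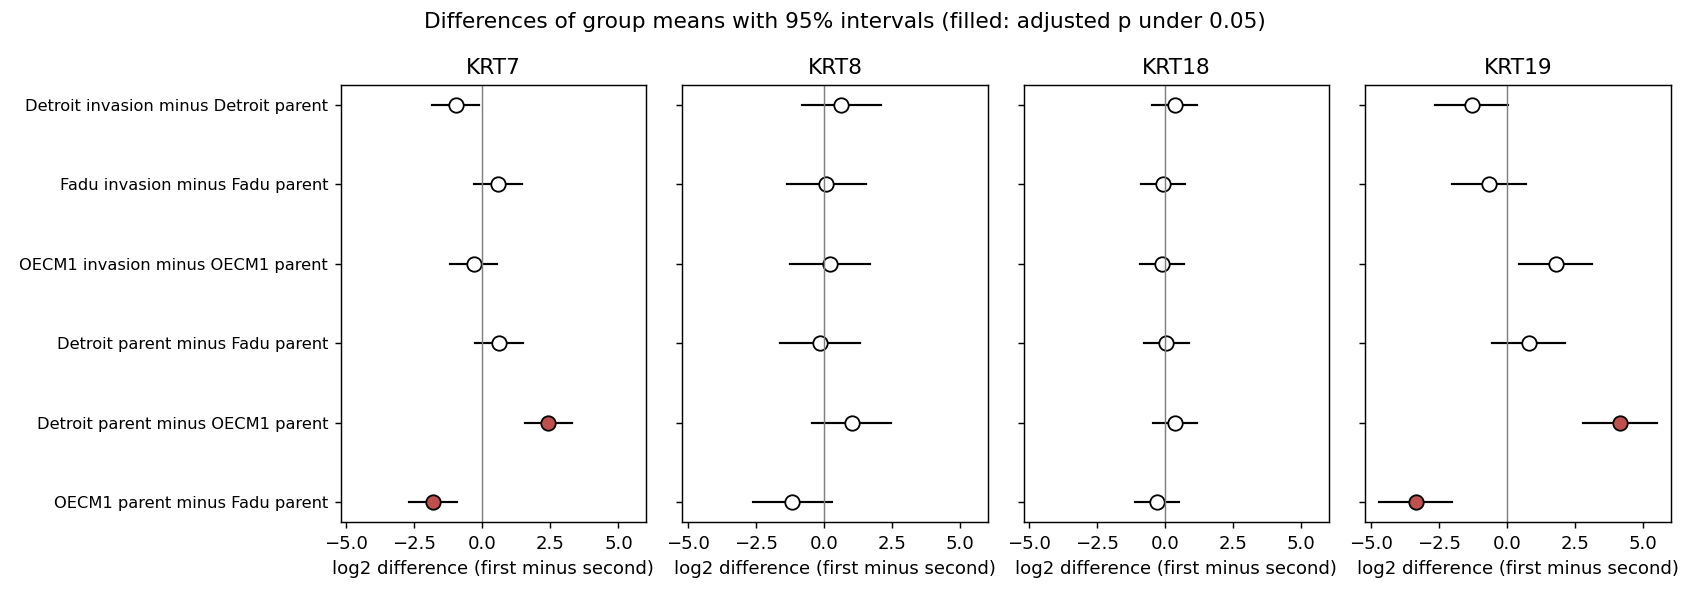
Log2 differences of group means (horizontal axes, first-named group minus second) for the 4 tested keratin probe sets, with 95% intervals from the limma fit; filled points passed an adjusted p of 0.05. The filled points are KRT7 and KRT19 in the comparisons of the Detroit parent with the OECM1 parent and of the OECM1 parent with the Fadu parent.

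In 5 of 6 groups the same array was the higher one for all 4 genes, and in the OECM1 subline KRT7 and KRT8 were lower where KRT18 and KRT19 were higher. The gap between the arrays of a group, replicate 2 minus replicate 1, was -2.69 for KRT8 and -1.21 for KRT19 in the Detroit-labelled subline, and 1.42% of tested probe sets had a larger gap than KRT8 there. In the Fadu subline it was 0.60 for KRT8, 0.77 for KRT18 and 1.36 for KRT19, and 0.602% had a larger gap than KRT19. After each group's mean was removed, the 12 arrays gave a Pearson r of 0.937 for KRT18 with KRT19, 0.851 for KRT8 with KRT18 and 0.683 for KRT8 with KRT19, while KRT7 gave 0.595 with KRT19, 0.523 with KRT18 and 0.361 with KRT8, as descriptions of arrays that share their RNA. Over the values as they stand r was 0.872 for KRT8 with KRT18, the assembly partners, and 0.632 for KRT18 with KRT19.

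RNA quality differed between the same arrays. The 3' minus 5' signal of ACTB, a measure that grows as RNA is degraded, was -0.28 and 0.80 in the Detroit-labelled subline and -0.03 and -0.10 in its parent, -0.05 and 0.40 in the Fadu subline and 0.55 and -0.23 in its parent, and 0.06 and 0.63 in the OECM1 subline and 0.87 and 0.04 in its parent. Within groups, over the 6 differences between duplicates, it correlated with KRT8 at -0.583, KRT7 at -0.289, KRT18 at -0.251 and KRT19 at -0.164. KRT7 and KRT8 were lower in the array with the higher ratio in 4 of 6 groups, and KRT18 and KRT19 in 3 of 6. The 18S ribosomal control read 12.68 on replicate 1 of the Fadu subline and 5.24 to 7.68 on the other arrays, and without that array the Fadu differences were 0.29 for KRT18 and 0.021 for KRT19. The part of this signal was not tested otherwise. The part of the ACTB ratio in the results was not tested beyond a fit with it as a covariate, in which the counts of called keratins were the same in every comparison run.

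**Figure D3:**
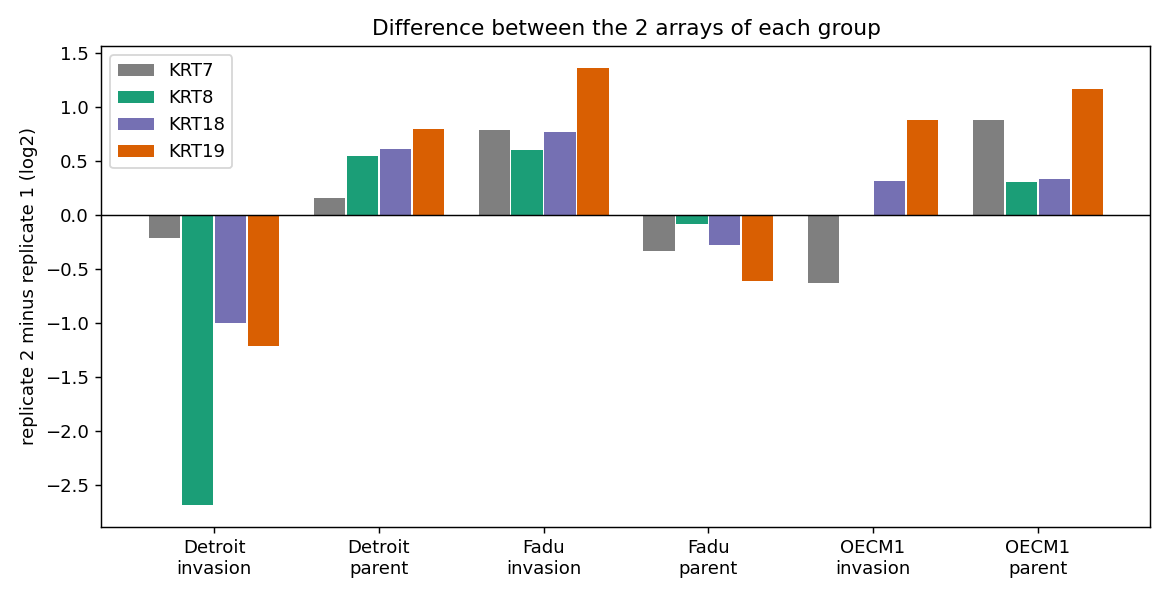
Difference between the 2 arrays of each group (vertical axis, replicate 2 minus replicate 1, log2) for KRT7, KRT8, KRT18 and KRT19 in the 6 groups. All 4 bars point the same way in every group except the OECM1 subline, and the longest is KRT8 in the Detroit-labelled subline at -2.69.

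Copies of these genes limit what a probe set can resolve. RefSeq annotates 52 pseudogenes of KRT8, 68 of KRT18, 5 of KRT19 and 0 of KRT7, and the KRT8 and KRT18 probe sets carry the suffix by which the manufacturer marks probes that match several sequences. A probe set for the pseudogene KRT8P12, looked up after the keratin values had been seen, read 6.88 and 5.32 in the Detroit-labelled subline and 5.65 and 5.54 in its parent. It followed KRT8 over the 12 arrays with r = 0.814. The shared signal of gene and copies therefore cannot be divided here.

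The genes whose pattern was most like each keratin were taken by Pearson r over the 12 arrays among 8988 genes, of which the nearest 3 are named. For KRT7 these were UBE2L6, a conjugating enzyme for the ubiquitin-like protein ISG15 (r = 0.940), TFPI2, an inhibitor of serine proteases (0.934), and PYCARD, the inflammasome adaptor (0.933). TFPI2 followed the group means and not the arrays within groups, where its r was -0.146. For KRT8 they were UQCRC1, a subunit of mitochondrial complex III (0.890), KRT13, a keratin of non-cornified squamous epithelium (0.877), and the RNA helicase DDX56 (0.877). For KRT18 they were KRT15, a basal keratin (0.876), the proteasome subunit PSMB5 (0.831) and the histone chaperone NAP1L4 (0.817). For KRT19 they were the immunoproteasome subunit PSMB8 (0.885), the nuclear receptor NR1H3 (0.881), whose arrays lay between 3.87 and 4.70, around the dim limit, and the small GTPase ARF3 (0.853). The 12 arrays hold 3 lines, so a gene that separates lines can rank high.

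Among 10 other tested keratins, most of them of stratified epithelium, 1 was called higher in the Detroit-labelled subline than in its parent. In Fadu and OECM1 0 were called. Over all probe sets 3.02% were called in the Detroit-labelled pair, the background for each list count given for it here. Between parents, 1 of the 10 was called lower in Detroit than in Fadu, against 2.29% of all probe sets called in either direction. In OECM1 1 was called lower than in Fadu, against 1.11% of all called lower. KRT14, the basal type I chain, averaged 10.52 ± 1.41 in the Detroit-labelled subline and 4.06 ± 0.08 in the Detroit parent (limma, adjusted p = 0.000332), while KRT18 and KRT8 were not called in the same arrays. In OECM1 the smallest p belonged to KRT5, the basal type II chain, with 5.55 ± 0.96 in the subline and 7.57 ± 0.86 in the parent (difference -2.02, adjusted p = 1), and the next to KRT10 of the suprabasal layers, with a difference of 0.33. In Fadu these were KRT4, a keratin of the oral and oesophageal lining, at -1.23, and KRT10 at 0.39. The list medians were 0.45 in the Detroit-labelled pair, 0.03 in Fadu and 0.07 in OECM1, against -0.01, -0.01 and 0.00 over all probe sets. Set against the Fadu parent, in which KRT14 read 9.08 and 8.66, the Detroit-labelled subline had a list median of 0.43. KRT6A, KRT6B and KRT17 have no probe set here with 1 symbol, and 33 other keratin probe sets did, of which 13 were dim on every array.

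Of 11 tested intermediate filament genes outside the keratins, 0 were called in any line. VIM, the vimentin of mesenchymal cells, averaged 10.10 ± 0.03 in the OECM1 subline and 7.29 ± 1.19 in the OECM1 parent, a difference of 2.81 with an adjusted p by limma of 0.226. The second smallest p in OECM1 was that of NES, nestin, at -0.31, and in Fadu NEFL, a neurofilament chain, stood at 0.86 and SYNM, synemin, at -0.47. In the Detroit-labelled pair NEFL differed by 0.76 and PRPH, peripherin, by 0.62. Between parents VIM averaged 7.29 ± 1.19 in the OECM1 parent, with arrays at 8.13 and 6.45, and 5.02 ± 0.03 in the Fadu parent (limma, adjusted p = 0.0393), where KRT7 and KRT19 were called lower. There 1 of the 11 was called, against 367 of 15124 probe sets called in either direction. In the Detroit parent 1 of the 11 was called lower than in the OECM1 parent, against 497 of 15124 called in either direction.

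Proteins that anchor keratins at desmosomes and hemidesmosomes showed 1 call among 17 tested genes in the Detroit-labelled pair and 0 in Fadu and OECM1. Between parents, 3 were called lower in Detroit than in OECM1, DSG3, DSP and DSC3, and the integrin ITGA6 was called higher in OECM1 than in Fadu. Of all 15124 probe sets, 497 were called between the Detroit and OECM1 parents, in either direction. The count was 367 between the OECM1 and Fadu parents. DSG3, a desmosomal cadherin of squamous cells, averaged 7.78 ± 1.91 in the Detroit-labelled subline and 4.56 ± 0.13 in its parent (limma, adjusted p = 0.0268), a call that ended without either parent array (0.131 and 0.118). In OECM1 the plakin PPL stood at -1.27 and DSP, the plakin that ties keratins to desmosomes, at -0.92, and in Fadu the desmocollin DSC3 stood at -0.75 and the plakophilin PKP1 at -0.50, all with adjusted p of 1. The list medians were 0.27 in the Detroit-labelled pair, -0.19 in Fadu and 0.01 in OECM1. Set against the Fadu parent, in which DSG3 read 7.08 and 6.48, the Detroit-labelled subline had a list median of 0.01.

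Among 17 tested chaperones, kinases and binding partners of keratins, 1 was called in the Detroit-labelled pair and 0 in Fadu and OECM1. Between parents, TGM2 was called higher and the chaperone DNAJB6 lower in Detroit than in Fadu, and DNAJB6 lower in OECM1 than in Fadu. Of all probe sets, 2.29% were called in either direction between the Detroit and Fadu parents. In the OECM1 parent 1.11% were called lower than in the Fadu parent. TGM2, a transglutaminase that cross-links keratins, averaged 5.54 ± 0.31 in the Detroit-labelled subline and 7.72 ± 0.47 in its parent (limma, adjusted p = 0.00838, and 0.0552 without replicate 2 of the parent). HSPB1, a small heat shock protein that binds keratin filaments, averaged 7.85 ± 0.19 in the Fadu subline and 9.97 ± 0.10 in the Fadu parent, a difference of -2.12 with an adjusted p of 1, and the ubiquitin ligase STUB1 stood at -0.34. In OECM1 TGM2 stood at 0.56 and STUB1 at 0.40. The list medians were 0.03 in the Detroit-labelled pair, -0.07 in Fadu and -0.07 in OECM1. Set against the Fadu parent, in which TGM2 read 5.47 and 5.67, the Detroit-labelled subline had a list median of -0.06.

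Among 22 tested transcription factors linked to epithelial keratin genes, 1 was called in the Detroit-labelled pair and 0 in Fadu and OECM1. Between parents, EHF was called higher in Detroit than in Fadu, and SNAI2, a repressor of epithelial genes, lower in Detroit than in OECM1 and higher in OECM1 than in Fadu. Of all 15124 probe sets, 347 were called between the Detroit and Fadu parents, in either direction. The counts were 497 between the Detroit and OECM1 parents and 367 between the OECM1 and Fadu parents. EHF, an ETS-family factor of glandular and airway epithelium, averaged 3.39 ± 0.27 in the Detroit-labelled subline, below the dim limit, and 7.89 ± 0.27 in the Detroit parent (limma, adjusted p = 0.000745). In Fadu the smallest p belonged to FOXA1, a forkhead factor of endodermal epithelia, at -1.40, and ELF3, an epithelial ETS factor, at -1.37. In OECM1 these were EHF at -1.03 and ETS2 at 0.76, and in neither line did any pass. The list medians were 0.26 in the Detroit-labelled pair, -0.13 in Fadu and 0.14 in OECM1. Set against the Fadu parent, in which EHF read 3.84 and 4.93, the Detroit-labelled subline had a list median of -0.21.

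Other markers of simple and glandular epithelium, 18 tested, showed 1 gene called higher and 3 called lower in the Detroit-labelled subline, and 0 in Fadu and OECM1. AGR2, a disulfide isomerase of secretory cells, averaged 4.04 ± 0.34 in the Detroit-labelled subline and 8.04 ± 0.10 in its parent (limma, adjusted p = 0.000375). The surface proteins CD24 and CEACAM6 were lower by differences of -3.25 and -3.23, and the tight junction protein CLDN7 was higher by 1.69, a call that ended on leaving out any 1 of 6 arrays. The smallest p belonged to CLDN4 at -0.89 and AGR2 at -1.03 in Fadu, and to AGR2 at 1.29 and CLDN4 at 0.62 in OECM1. The list median was -1.33 in the Detroit-labelled pair, against -0.01 over all probe sets, -0.38 in Fadu and 0.30 in OECM1. Set against the Fadu parent, in which AGR2 averaged 4.98, the Detroit-labelled subline had a list median of 0.08. In that comparison 0 of the 18 were called, and 0 of all probe sets. Between the Detroit and OECM1 parents 6 of these 18 were called higher and 0 lower, with a list median of 1.60, against 1.43% of all probe sets called higher. Between the Detroit and Fadu parents 3 were called higher and 0 lower, with a list median of 1.25, against 2.29% called in either direction. Between the OECM1 and Fadu parents 2 were called lower, CLDN7 and the protease ST14, and 0 higher, against 1.11% of all probe sets called lower.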

How the data were processed

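Total RNA of 12 samples (3 lines, subline and parent, 2 arrays each) was extracted with Trizol and hybridised to Affymetrix arrays, per the labels' protocols. The deposited log2 values were made by the authors with RMA, and Partek version 7 was used, per the submitters' processing notes; the genome build and annotation are not given in the sources used here. Because RMA compresses dim signals, small folds of dim genes are understated. Of 22283 probe sets, 68 controls were left out, and 15124 with at least 2 arrays above the 40th percentile (log2 4.52) entered the tests. The table had 0 unused value columns. Arrays have no read depth, and their number limits precision.

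A mean per group was fitted with limma 3.58.1 in R 4.3.3 (empirical Bayes with intensity trend), with Benjamini-Hochberg adjustment over all 15124 probe sets and a threshold of 0.05. The average effect used 6 group means with line as a block. Fits of the subline effects, their average and the F test were run on simulated data with independent noise between arrays. The parent comparisons were not checked in that simulation, and no result here rests on it. Genes beside the members were named by rule: up to 4 called genes of each list per subline comparison, otherwise the 2 of smallest p, and the 3 nearest by correlation. Each listed gene used its brightest probe set. Called genes of parent comparisons are outside that rule. The members and lists were chosen with earlier results of these data known.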

Additional observations from a re-analysis of the deposited data

Results flagged for a closer look

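KRT7 moved in opposite directions in the Detroit-labelled and Fadu pairs, in every array: the log2 difference, subline minus parent, was -0.98 in the Detroit-labelled pair and 0.57 in Fadu. KRT19 did so in the Detroit-labelled and OECM1 pairs, with -1.29 in the Detroit-labelled pair and 1.80 in OECM1. For KRT7 in Fadu the margin was narrow, with 7.32 in the lower subline array and 7.31 in the higher parent array. These line-by-line contrasts were not tested on their own. The F test over the 3 lines gave adjusted limma p of 0.617 for KRT7 and 0.337 for KRT19. The opposed directions rest on 2 arrays per group, and 18.8% of all probe sets were lower without overlap in the Detroit-labelled subline, 15.5% higher in the Fadu subline and 12.7% higher in the OECM1 subline.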

How the results depend on the processing

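The 27 settings changed the filter, scaling, probe set choice, trend, array weights, covariates or arrays, and sublines in place of parents, averaged lines and crossed replicate numbers were added after the data had been seen. In the Detroit-labelled pair the count of called keratins, 0, ranged from 0 to 1 with 1 array left out. In the Detroit parent against the OECM1 parent the count, 2, was 1 with the replicate block, 1 with sublines in place of parents, and 0 to 2 with 1 array left out. In the OECM1 parent against the Fadu parent the count, 2, was 1 with no filter, 1 with array weights, 0 with the replicate block, 1 with only the 4 arrays compared, 1 with sublines in place of parents, and 0 to 2 with 1 array left out.

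Directions turned as follows. KRT18 in the Detroit parent against the Fadu parent was -0.011 with the ACTB ratio as covariate. The average without the Detroit pair was 0.13 for KRT7, -0.11 for KRT18 and 0.57 for KRT19. With 1 array left out, the Detroit-labelled effect ran from -0.70 to 1.99 for KRT8 and -0.17 to 0.84 for KRT18. The Fadu effect ran from -0.22 to 0.39 for KRT8, -0.48 to 0.29 for KRT18 and -1.34 to 0.021 for KRT19. The OECM1 effect ran from -0.76 to 0.12 for KRT7 and -0.29 to 0.045 for KRT18. The Detroit parent against the Fadu parent ran from -0.42 to 0.13 for KRT8 and -0.27 to 0.35 for KRT18. The Detroit-labelled subline against the Fadu parent ran from -0.84 to 1.85 for KRT8, -0.13 to 0.88 for KRT18 and -1.09 to 0.12 for KRT19. The average ran from -0.13 to 0.77 for KRT8, -0.13 to 0.21 for KRT18 and -0.28 to 0.17 for KRT19. The causes were not tested.

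Subline and parent arrays with the same replicate number did not deviate together. Their deviations correlated at -0.168 in Detroit, -0.409 in Fadu and -0.405 in OECM1. With these negative values, arrays with unlike numbers tended to deviate together, so subline and parent arrays may not be independent. The cause was not tested. With the numbers crossed, 0 keratins were called in each line, and 749, 2 and 0 of all probe sets. Over all settings the count of called probe sets ran from 44 to 1366 in the Detroit-labelled pair (457), 0 to 5 in Fadu (3), 0 to 6 in OECM1 (1), 84 to 756 in the Detroit against Fadu parents (347), 214 to 823 in the Detroit against OECM1 parents (497), 71 to 2078 in the OECM1 against Fadu parents (367), 0 to 306 in the Detroit-labelled subline against the Fadu parent (0) and 0 to 328 in the F test (91).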

Other observations

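Some of the 10 other tested keratins, most of them of stratified epithelium, followed KRT18 between the 2 arrays of a group. After group means were removed, KRT15 correlated with KRT18 at r = 0.981, the highest of the other probe sets among 15124 tested, KRT13 at 0.848, KRT4 at 0.820 and KRT5 at 0.730, whereas KRT14 stood at 0.347 and KRT10 at -0.307. The median over all tested probe sets was 0.03. Each of these r rests on 6 differences between duplicates. KRT4 and KRT15 were higher in the same array as KRT18 in 6 of 6 groups, KRT13 in 5, KRT5, KRT10, KRT16 and KRT23 in 4, and KRT3, KRT9 and KRT14 in 3. In the Detroit-labelled subline the arrays differed by 4.64 in KRT13, and 0.0727% of tested probe sets differed by more. These genes were picked after their values had been seen, and the cause was not tested.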
